A study of Homo sapiens with 8 samples.

Results

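The 10 genes described here, *CHD5*, *CAMTA1*, *KIF1B*, *CASZ1*, *ARID1A*, *PRDM16*, *AJAP1*, *RUNX3*, *TNFRSF25* and *ERRFI1*, lie in the distal short arm of chromosome 1 (1p36) and have been put forward as tumor suppressors there. They were taken by name, by a rule that uses no measured value, from the 64486 genes of GENCODE release 44 on GRCh37, and all 10 were found. DNA methylation was measured by MBD-seq, in which a methyl-CpG binding domain of MBD2 captures methylated DNA fragments for sequencing, in 8 neuroblastoma (NB) cell lines, established cultures of a childhood tumor of the sympathetic nervous system. IMR-32, N206, CHP-902R and LA-N-2 have amplified *MYCN* (MNA), and CLB-GA, SK-N-AS, SH-SY5Y and SJNB-1 do not (*MYCN* single copy). No treatment is given in the labels, each line was 1 sample, and the 4 lines of a group served as its replicates. The deposited lists held 70816 to 112412 peaks per line, with 88496 to 112412 in the MNA lines and 70816 to 86079 in the single copy lines. Every MNA list was thus longer than every single copy list. In comparisons of the groups, *MYCN* status and the number of called peaks therefore cannot be told apart. Read counts are not part of the lists, the depth of each line is not given in the sources used here, and the study gives it only as a range over the lines. So a missing peak means only that none was called.

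The distal short arm of chromosome 1 is often lost in NB, above all in tumors with amplified *MYCN*, and the search for suppressor genes there has turned to genes whose remaining copy could be silenced without a mutation. A methylated CpG island over the transcription start site (TSS) usually goes with a silent promoter, whereas methylation in the body of a gene is common and often found in active genes. The question put to the peak lists was therefore where in each gene the peaks lay, in which lines, and whether they differed with *MYCN* status.

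For the 10 genes, a promoter peak was counted where a peak overlapped, by at least 1 bp, the window that starts 1500 bp before a TSS of the gene and ends 1000 bp after it. The genes have 108 TSS in all, from 3 for *AJAP1* to 31 for *CAMTA1*, and most of them lie inside the gene. The canonical TSS is that of the 1 transcript that Ensembl marks as canonical. Counting every TSS, each of the 10 genes had such a peak in 1 line or more, and 7 of them in 4 or more. Counting the canonical TSS alone, 3 genes (*AJAP1*, *RUNX3* and *ERRFI1*) did so in 1 line or more, and 1 (*ERRFI1*) in 4. By any TSS, 71.0% of the 383 other protein-coding genes of the first 28 Mb of chromosome 1 had a peak in 1 line or more. In 4 or more lines the share was 31.9%, and 7.31% by the canonical TSS alone. Those 383 genes have a median of 4 TSS, against 9.5 for the 10 genes. Among the 14596 other protein-coding genes of the whole genome with 3 to 31 TSS (median 7), the shares by any TSS were 82.2% and 47.1%. No peak covered the canonical TSS itself in any of the 80 pairs of gene and line. Of the 70 promoter peaks, 8 lay in a canonical window, and of the other 62, 39 (62.9%) lay on a coding exon.

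The reference sequence shows the CpG content of stretches with and without a called peak. All stretches below are on chromosome 1 of GRCh37, are written 5′ to 3′ on the strand of the gene, and have each CpG, the unit that is methylated, in capitals. The first is the stretch directly before the canonical TSS of *CHD5* (chr1:6240382-6240631, minus strand), shown because it is dense in CpG, with 29 in this stretch, and no line had a peak on it. The second is part of the peak of IMR-32 downstream of the canonical TSS of *RUNX3* (chr1:25255810-25256109, minus strand, 33 CpG), the canonical-window peak that ranked highest within the list of its own line. The third is part of the peak of SH-SY5Y upstream of *AJAP1* (chr1:4713846-4714145, plus strand, 22 CpG), and the fourth the stretch upstream of *ERRFI1* shared by 3 lines (chr1:8087223-8087375, minus strand, 8 CpG).
CHD5 promoter: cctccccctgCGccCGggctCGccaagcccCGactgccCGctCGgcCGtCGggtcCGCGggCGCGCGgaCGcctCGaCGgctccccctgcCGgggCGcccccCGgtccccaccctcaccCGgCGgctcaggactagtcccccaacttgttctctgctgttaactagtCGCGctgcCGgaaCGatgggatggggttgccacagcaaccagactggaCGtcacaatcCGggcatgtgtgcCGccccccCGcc
RUNX3 first exon and intron: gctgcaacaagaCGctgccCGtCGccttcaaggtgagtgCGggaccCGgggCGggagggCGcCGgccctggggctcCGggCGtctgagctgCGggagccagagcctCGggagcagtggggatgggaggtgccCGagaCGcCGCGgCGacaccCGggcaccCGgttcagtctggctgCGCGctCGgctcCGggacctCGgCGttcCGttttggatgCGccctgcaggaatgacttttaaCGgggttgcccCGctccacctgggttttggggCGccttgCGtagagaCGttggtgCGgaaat
AJAP1 upstream: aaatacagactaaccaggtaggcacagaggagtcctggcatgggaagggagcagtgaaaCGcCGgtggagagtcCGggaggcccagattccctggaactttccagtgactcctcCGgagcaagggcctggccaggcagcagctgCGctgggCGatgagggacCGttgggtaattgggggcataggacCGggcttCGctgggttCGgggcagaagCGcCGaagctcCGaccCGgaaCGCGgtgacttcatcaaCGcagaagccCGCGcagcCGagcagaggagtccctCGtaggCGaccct
ERRFI1 upstream: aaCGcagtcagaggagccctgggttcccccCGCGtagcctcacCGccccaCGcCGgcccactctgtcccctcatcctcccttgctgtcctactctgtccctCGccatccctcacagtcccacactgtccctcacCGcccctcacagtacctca

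Inside the genes, 3 stretches that most lines shared are shown for contrast. The first is coding sequence in exon 2 of *AJAP1* (chr1:4772081-4772380, plus strand, 30 CpG, shared by 5 lines). The second is intronic sequence between coding exons near the 3′ end of *CHD5* (chr1:6166348-6166454, minus strand, 9 CpG, 5 lines), the longest part of the shared interval that no transcript annotates as untranslated. The last is an intron of *PRDM16* (chr1:3063043-3063342, plus strand, 10 CpG, 7 lines), where 43.9% of all 12-base words in the printed stretch occur in it more than 1 time, against 0 to 4.15% in the other 6 stretches.
AJAP1 exon 2: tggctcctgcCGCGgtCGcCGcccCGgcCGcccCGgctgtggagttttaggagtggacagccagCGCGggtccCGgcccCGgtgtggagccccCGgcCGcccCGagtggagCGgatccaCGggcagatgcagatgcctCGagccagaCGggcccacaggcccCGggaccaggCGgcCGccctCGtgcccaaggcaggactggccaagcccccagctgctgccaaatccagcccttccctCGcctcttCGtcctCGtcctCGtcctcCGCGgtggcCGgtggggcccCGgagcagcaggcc
CHD5 3′ part: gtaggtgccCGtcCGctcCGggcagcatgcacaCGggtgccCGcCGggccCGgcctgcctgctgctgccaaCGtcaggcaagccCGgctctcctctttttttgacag
PRDM16 intron: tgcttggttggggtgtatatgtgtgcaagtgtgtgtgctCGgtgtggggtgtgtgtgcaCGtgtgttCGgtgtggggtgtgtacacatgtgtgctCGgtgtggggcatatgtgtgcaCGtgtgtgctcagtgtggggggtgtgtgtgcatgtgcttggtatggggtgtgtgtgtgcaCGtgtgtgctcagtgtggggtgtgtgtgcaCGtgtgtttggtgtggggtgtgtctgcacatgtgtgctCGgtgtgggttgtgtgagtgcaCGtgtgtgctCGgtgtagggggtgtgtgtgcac

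The canonical promoters were the CpG-dense parts of most of these genes. CpG density in the canonical window of 2501 bp ran from 4.16 per 100 bp in *TNFRSF25* and 4.92 in *CASZ1* to 11 in *RUNX3* and 11.4 in *PRDM16*, with a median over the genes of 9.1. The median over the other 383 protein-coding genes of the first 28 Mb of chromosome 1 was 4.84. A peak in the canonical window in at least 1 line was seen in 3 of the 10 genes and in 47.8% of these 383 genes. Among genes with at least 8 CpG per 100 bp of canonical window, a limit set after the densities were seen, the shares were 42.9% of the 7 such genes listed here and 46.7% of 45 others in the first 28 Mb. In those 45 genes no peak covered the canonical TSS base in any line, as in the 10 genes, whereas over the 383 genes it was covered in 2.32% of the pairs of gene and line.

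**Figure D1:**
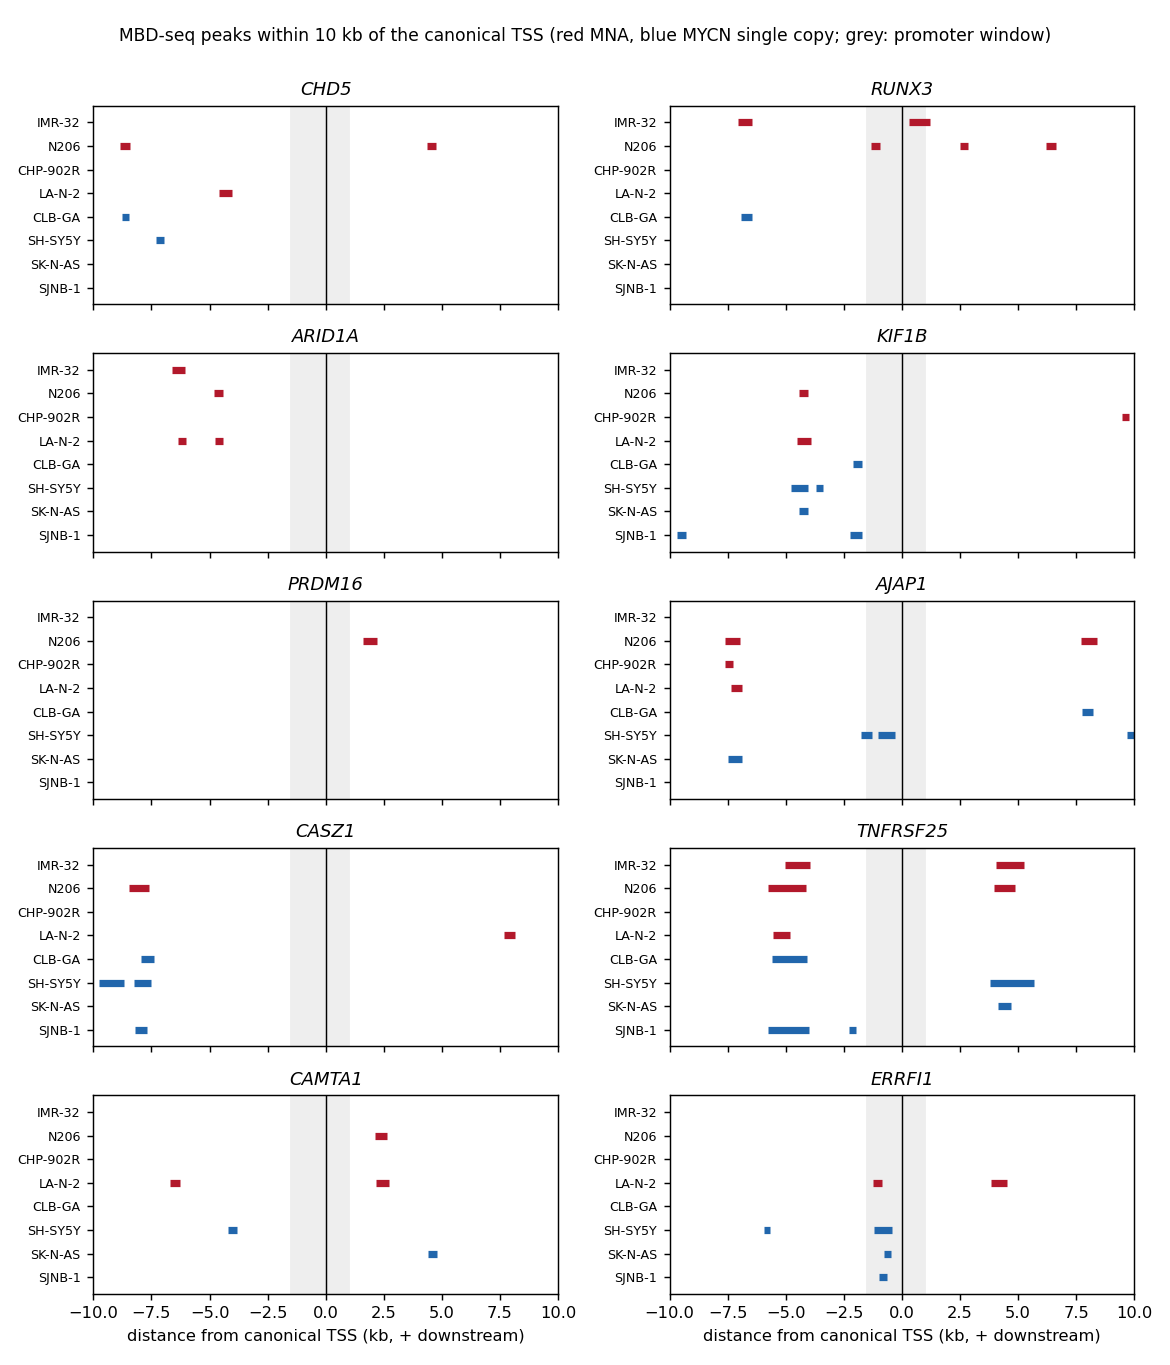
Peaks within 10 kb of the canonical TSS of each gene; the x axis is the distance from the TSS in kb (positive downstream), each row is 1 line, each bar 1 peak (red MNA, blue *MYCN* single copy), and grey marks the promoter window. Bars fall inside the grey windows of *RUNX3*, *AJAP1* and *ERRFI1*, and no bar crosses the vertical line at the TSS.

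**Figure D2:**
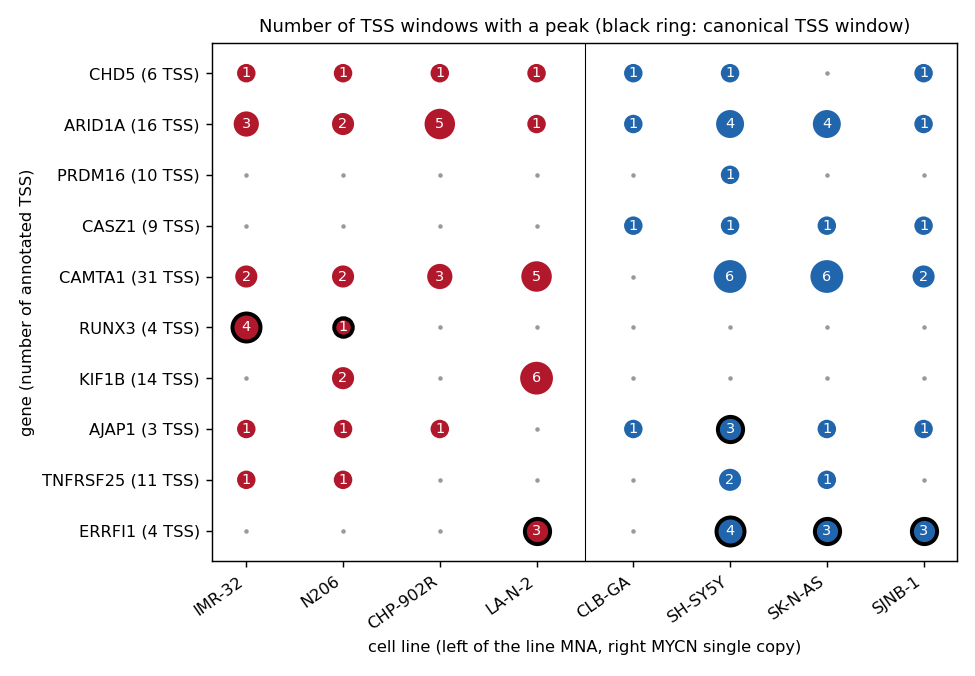
Number of TSS windows of each gene that hold a peak, by line; the number in each circle is the count of windows, a dot is 0, a black ring means that the canonical window is among them, and the thin line separates the MNA lines on the left from the *MYCN* single copy lines on the right. *ARID1A* has circles in all 8 lines without a ring, and *CASZ1* has circles in the 4 *MYCN* single copy lines only.

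Chromatin remodelers came first. *CHD5* encodes a chromodomain helicase of nucleosome remodeling complexes that is expressed mainly in the nervous system. It is annotated on the minus strand at chr1:6161847-6240381 with 6 TSS. Its canonical promoter (9.4 CpG per 100 bp) had no peak in any line, and the peak nearest to that TSS was 4023 bp away in LA-N-2 and up to 60398 bp away in another line, with a median of 9620 bp. Promoter peaks by any TSS were present in 7 lines, all but SK-N-AS, and all 7 peaks lay on coding exons. In N206, CHP-902R, CLB-GA, SH-SY5Y and SJNB-1 the peak was at exon 39 of 42, 73.9 kb downstream of the canonical TSS and close to the TSS of a short transcript, and its scores ran from 53.4 in SJNB-1 to 90.1 in SH-SY5Y. In IMR-32 and LA-N-2 it was instead at exon 23, with scores of 109 and 112. The score is −10 times the log10 of the MACS p-value, so 50 corresponds to 1e-05, the lowest score in every list. Of the 20 peaks in the gene body over all lines, 14 touched a coding exon, and coding sequence makes up 7.91% of the body; over the 383 other genes of the region 30.9% of body peaks did so and 4.39% of the body is coding.

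Gene body cover, the percent of the gene between its annotated ends that lies under peaks, was 1.84, 3.72, 2.33 and 0.39% for *CHD5* in IMR-32, N206, CHP-902R and LA-N-2. It was 1.85, 0.447, 3.13 and 3.31% in CLB-GA, SK-N-AS, SH-SY5Y and SJNB-1. Each group held a line under 0.5% and lines above 2%, and the groups overlapped. The means were 2.07 ± 1.37% (SD, n = 4) in the MNA lines and 2.19 ± 1.33% (SD, n = 4) in the *MYCN* single copy lines, which lie closer to each other than the lines of a group do (p = 0.914, exact permutation test, two-sided).

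*ARID1A* encodes a DNA-binding subunit of the SWI/SNF (BAF) remodeling complex, and lies on the plus strand at chr1:27019727-27108595. It was the only one of the 10 genes with a promoter peak by any TSS in all 8 lines, and none of its 16 peaks was in the canonical window. Its 16 TSS are spread along the gene, so that promoter windows take up 27.9% of the body. The peaks lay at different places in different lines. At exon 18, N206, CHP-902R, SH-SY5Y and SK-N-AS shared a peak (core chr1:27100921-27101342), and IMR-32, CHP-902R and SK-N-AS had one at exon 2. A further peak of IMR-32 and of CHP-902R also lay in the promoter window of *RN7SL501P*. The nearest peak to the canonical TSS was between 4402 and 73710.0 bp away. The last exon, outside every promoter window, held the most widely shared region of the gene (chr1:27105811-27107426), with peaks in IMR-32, N206, LA-N-2, SK-N-AS, SH-SY5Y and SJNB-1 and scores from 80.5 to 173.

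Body cover of *ARID1A* was 5.55, 7.15, 2.07 and 7.13% in IMR-32, N206, CHP-902R and LA-N-2, and 0.89, 5.99, 3.71 and 1.2% in CLB-GA, SK-N-AS, SH-SY5Y and SJNB-1. In the MNA group 3 lines were above 5%, but SK-N-AS exceeded IMR-32 and CHP-902R was lower than 2 of the single copy lines. The group means were 5.48 ± 2.39% and 2.95 ± 2.39% (SD, n = 4 each), which did not differ by the exact permutation test (two-sided, p = 0.2). At a mean of 6.61 peaks per 100 kb, *ARID1A* had more peaks for its length than any of the 10 genes but *TNFRSF25*.

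**Figure D3:**
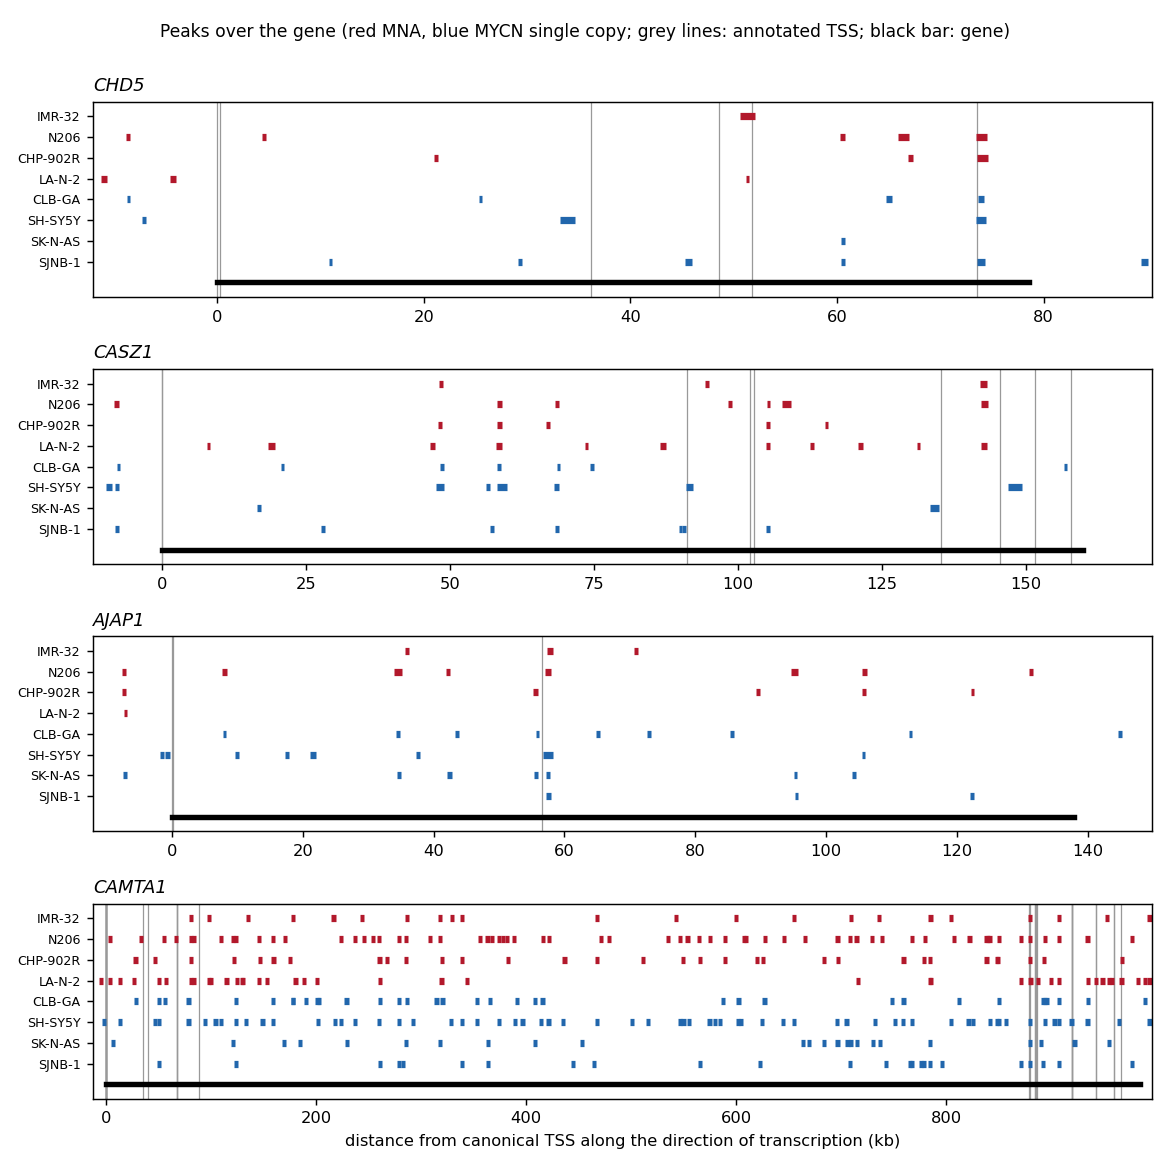
Peaks over *CHD5*, *CASZ1*, *AJAP1* and *CAMTA1*; the x axis is the distance in kb from the canonical TSS in the direction of transcription, each row is 1 line, each bar 1 peak (red MNA, blue *MYCN* single copy), grey lines are annotated TSS and the black bar is the gene. In *CHD5* 5 lines line up at 73.9 kb, the promoter peaks of the 4 single copy lines of *CASZ1* lie near 3 different grey lines, and LA-N-2 has no peak in *AJAP1*.

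The transcription factors differed in where their peaks lay. *CASZ1* encodes a zinc finger factor with roles in the development of nerve and heart, and lies on the minus strand at chr1:10696661-10856707. It had a promoter peak by any TSS in all 4 *MYCN* single copy lines and in no MNA line, a pattern that 33 of 64486 genes (0.0512%) shared, and was the only one of the 10 genes to separate the groups in this way; none had the reverse, a peak in all MNA lines and in no single copy line (94 genes, 0.146%). Fisher's exact test (two-sided) gave p = 0.0286, the smallest that 4 lines against 4 allow, which 127 genes (0.197%) reached, and the adjusted p over all genes was 1. The peaks behind it did not coincide. CLB-GA had its peak at chr1:10699511-10700087 in the last exon (score 62.3), and SK-N-AS at chr1:10721702-10723242 in an intron (69.7). SH-SY5Y (chr1:10764584-10765723, 72.4) and SJNB-1 (chr1:10765736-10766333, 56.8, and chr1:10766538-10766976, 51.0) had theirs at the same internal TSS without overlapping each other. The peak of CLB-GA also lay in the promoter window of ENSG00000272078.

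No *CASZ1* promoter peak was in the canonical window, and the peak nearest to the canonical TSS in any line was 7400 bp from it. None reached a score of 100, so the pattern is lost with that limit. MNA lines also carried peaks in the gene. IMR-32, N206 and LA-N-2 shared one at exon 11, which ended 143.307, 143.455 and 143.312 kb downstream of the canonical TSS. It lay upstream of an internal TSS at 145.546 kb, just outside the window of that TSS. A window reaching further upstream would have counted it, so the pattern depends on the window chosen. N206, CHP-902R, LA-N-2, CLB-GA and SH-SY5Y shared an intronic region (chr1:10796866-10798695). Body cover was 1.51, 3.31, 2.16 and 5.31% in IMR-32, N206, CHP-902R and LA-N-2, and 2.05, 1.24, 4.98 and 1.75% in CLB-GA, SK-N-AS, SH-SY5Y and SJNB-1. The highest line of each group was near 5% and the ranges overlapped almost fully (3.07 ± 1.66% against 2.51 ± 1.69%, SD, n = 4 each; two-sided exact permutation test, p = 0.571).

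*CAMTA1*, a calmodulin-binding transcription activator of neurons, is the longest of the genes at 984 kb (chr1:6845514-7829766, plus strand) and held 295 of the 631 body peaks of the 10 genes. Its canonical window (10.6 CpG per 100 bp) had no peak in any line. A region at exon 9, 878 kb downstream and over the TSS of shorter transcripts, had a peak in 7 lines, all but CLB-GA. Within each line's own list, this peak scored above 96.3% of all peaks in IMR-32, 95.9% in SJNB-1, 92% in N206 and 83% in SH-SY5Y, and above 56.6% in CHP-902R, 57% in LA-N-2 (the higher of its 2 peaks there) and 66.5% in SK-N-AS. The whole region had 5.2 CpG per 100 bp, against a median of 3.26 over the regions of the 10 genes with peaks in 6 or 7 lines. Outside the promoter windows, introns at chr1:7103562-7104812 and chr1:7750433-7751338 had peaks in 6 lines each.

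IMR-32, N206, CHP-902R and LA-N-2 had 21, 62, 32 and 37 peaks in *CAMTA1*, and CLB-GA, SK-N-AS, SH-SY5Y and SJNB-1 had 34, 24, 61 and 24. N206 and SH-SY5Y, 1 line of each group, stood above the other 6. Body cover was 1.35, 4.15, 1.99 and 2.3% in the MNA lines and 1.55, 1.63, 4.83 and 1.58% in the single copy lines, in the same order. The means were 2.45 ± 1.2% and 2.4 ± 1.62% (SD, n = 4 each; two-sided exact permutation test, p = 0.943). In LA-N-2 no peak was called over 372 kb inside the gene (chr1:7187375-7559395), where the other lines had 5 to 25 peaks each. The longest stretch without a peak in the other lines ran from 42.2 kb in SH-SY5Y to 210.0 kb in SK-N-AS, and these stretches were looked at only after the map of the gene was seen.

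*PRDM16*, a zinc finger factor best known for the fate of brown fat cells, was the gene with the densest CpG window (11.4 per 100 bp) and the fewest promoter peaks (chr1:2985732-3355185, plus strand). SH-SY5Y alone had one, at an internal TSS (chr1:3160046-3160375, score 57). N206 had a peak 1616 bp downstream of the canonical TSS, just outside the window. Its introns, in contrast, held some of the most widely shared peaks of the 10 genes. The repetitive intron stretch printed above was part of a region (chr1:3062846-3064196) with peaks in all lines but CLB-GA and scores up to 244. A further intron region (chr1:3237788-3238979) had peaks in 6 lines and scores up to 343, and one at chr1:3030593-3031504 had peaks in 6 lines and 8.15 CpG per 100 bp in the part they shared. Only 2 of its 97 body peaks (2.06%) touched a coding exon. Body cover was 1.33, 2.87, 2.56 and 0.919% in IMR-32, N206, CHP-902R and LA-N-2 and 0.281, 1.48, 4.71 and 2.3% in CLB-GA, SK-N-AS, SH-SY5Y and SJNB-1. The single copy group held both the lowest and the highest value, and the means of 1.92 ± 0.943% and 2.19 ± 1.87% (SD, n = 4 each) had p = 0.857 in the two-sided exact permutation test.

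*RUNX3* encodes a Runt-domain factor that acts downstream of TGF-β, and is annotated on the minus strand at chr1:25226002-25291612. It had promoter peaks in IMR-32 and N206, both MNA, and in no other line (two-sided Fisher's exact test, p = 0.429, adjusted p = 1). In IMR-32 the peak ran from 293 to 1206 bp downstream of the canonical TSS (chr1:25255561-25256474), with 12.4 CpG per 100 bp and scored 130, above 94.3% of that line's peaks. In N206 the peak was at −1319 to −925 bp (chr1:25257692-25258086) and scored 51.3 (above 4.67% of that line's peaks), and it did not overlap that of IMR-32. IMR-32 had a second peak at the distal TSS of a longer transcript (chr1:25291359-25291882, score 52.3). At the other end of the gene, the last exon (chr1:25228294-25229771) had peaks in IMR-32, CHP-902R, SK-N-AS, SH-SY5Y and SJNB-1.

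Body cover of *RUNX3* was 6.61, 8.58, 0.712 and 0% in IMR-32, N206, CHP-902R and LA-N-2, and 1.28, 5.5, 3.78 and 2.13% in CLB-GA, SK-N-AS, SH-SY5Y and SJNB-1. The MNA group was split, with its lines at the top and at the bottom of all 8. The means of 3.97 ± 4.26% and 3.17 ± 1.87% (SD, n = 4 each) did not differ by the two-sided exact permutation test (p = 0.743).

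Of the genes for transport and adhesion, *KIF1B* encodes a kinesin that carries mitochondria and synaptic vesicle precursors along axons (chr1:10270628-10441661, plus strand). Promoter peaks were present in N206 and LA-N-2 only (p = 0.429, two-sided Fisher's exact test, adjusted p = 1), all 6 at internal TSS. The canonical window (200 CpG, 8.0 per 100 bp) was without a peak, although CLB-GA and SJNB-1 had one just outside it, 1705 and 1722 bp upstream. The gene had 0, 8, 5 and 23 body peaks in IMR-32, N206, CHP-902R and LA-N-2, and 4, 5, 9 and 4 in CLB-GA, SK-N-AS, SH-SY5Y and SJNB-1. IMR-32 and LA-N-2, both MNA, were the lowest and the highest of the 8 lines. Body cover was 0, 2.51, 1.19 and 6.55% in the MNA lines and 1.04, 1.4, 3.09 and 0.71% in the single copy lines, in that order. The means were 2.56 ± 2.85% and 1.56 ± 1.06% (SD, n = 4 each; two-sided exact permutation test, p = 0.657), and without LA-N-2 the difference of 1.0 percentage point turned to −0.327.

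*AJAP1* encodes a transmembrane protein of adherens junctions (chr1:4714669-4852594, plus strand). By any TSS it had promoter peaks in 7 lines, all but LA-N-2. In IMR-32, N206, SK-N-AS, SH-SY5Y and SJNB-1 a peak covered exon 2, 57.6 kb downstream of the canonical TSS and beside an internal one. Scores there were 59.5, 93.3, 51.7, 76.1 and 85 in this order, and the shared part (570.0 bp, chr1:4771947-4772516) held 46 CpG, or 8.07 per 100 bp. CHP-902R, CLB-GA and also SK-N-AS had a peak in the intron before it. SH-SY5Y was the only line with peaks in the canonical window, at chr1:4712907-4713386 (score 50.5) and chr1:4713625-4714368 (score 106), the second at −1044 to −301 bp from the TSS. Body cover was 1.55, 4.08, 1.24 and 0% in IMR-32, N206, CHP-902R and LA-N-2, and 2.76, 2.41, 3.14 and 1.26% in CLB-GA, SK-N-AS, SH-SY5Y and SJNB-1. LA-N-2 had no peak anywhere in the gene, and N206 had the highest cover. The means of 1.72 ± 1.71% and 2.39 ± 0.814% (SD, n = 4 each) had p = 0.543 in the two-sided exact permutation test.

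Both signaling genes had a promoter peak in 4 lines. *TNFRSF25* encodes a death receptor of the TNF receptor family and is the shortest gene (5.39 kb, chr1:6520846-6526235, minus strand). Its 11 TSS put 84.8% of the body inside a promoter window, so that a promoter peak and a body peak are nearly the same thing here. IMR-32, N206, SH-SY5Y and SK-N-AS each had 1 peak, with scores of 57.1, 60.9, 65.5 and 76.5, over the 3′ exons, and all 4 peaks also lay in a promoter window of the neighboring gene *ESPN*. These peaks shared 592 bp (chr1:6521522-6522113) with 51 CpG, or 8.61 per 100 bp, the highest density of a shared part among regions of the 10 genes with peaks in at least 4 lines, while the canonical window had no peak and 4.16 CpG per 100 bp. Body cover was 22.2, 17.2, 0 and 0% in IMR-32, N206, CHP-902R and LA-N-2, and 0, 11, 29.8 and 0% in CLB-GA, SK-N-AS, SH-SY5Y and SJNB-1. In each group 2 lines had a peak and 2 had none (9.85 ± 11.5% and 10.2 ± 14.0%, SD, n = 4 each; two-sided exact permutation test, p = 1.0).

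*ERRFI1* (MIG6) encodes a feedback inhibitor of the EGF receptor (chr1:8064464-8086369, minus strand). It was the only gene with peaks in the canonical window in more than 2 lines. The peaks lay upstream of the TSS, at chr1:8087223-8087612 in LA-N-2 (score 67.3), chr1:8086802-8087569 in SH-SY5Y (98.3), chr1:8086824-8087132 in SK-N-AS (74.7) and chr1:8087005-8087375 in SJNB-1 (60.8). The peak of LA-N-2 and that of SK-N-AS did not overlap, and all 4 also fell in the promoter window of the divergent transcript *ERRFI1-DT*. With 1 MNA line and 3 single copy lines, Fisher's exact test (two-sided) gave p = 0.486 (adjusted p = 1). The body of the gene held few peaks. IMR-32, N206 and CHP-902R had no cover and LA-N-2 3.06%, whereas CLB-GA and SH-SY5Y had 1.28 and 1.51% and SK-N-AS and SJNB-1 none. The means were 0.766 ± 1.53% and 0.697 ± 0.81% (SD, n = 4 each; two-sided exact permutation test, p = 1.0).

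**Figure D4:**
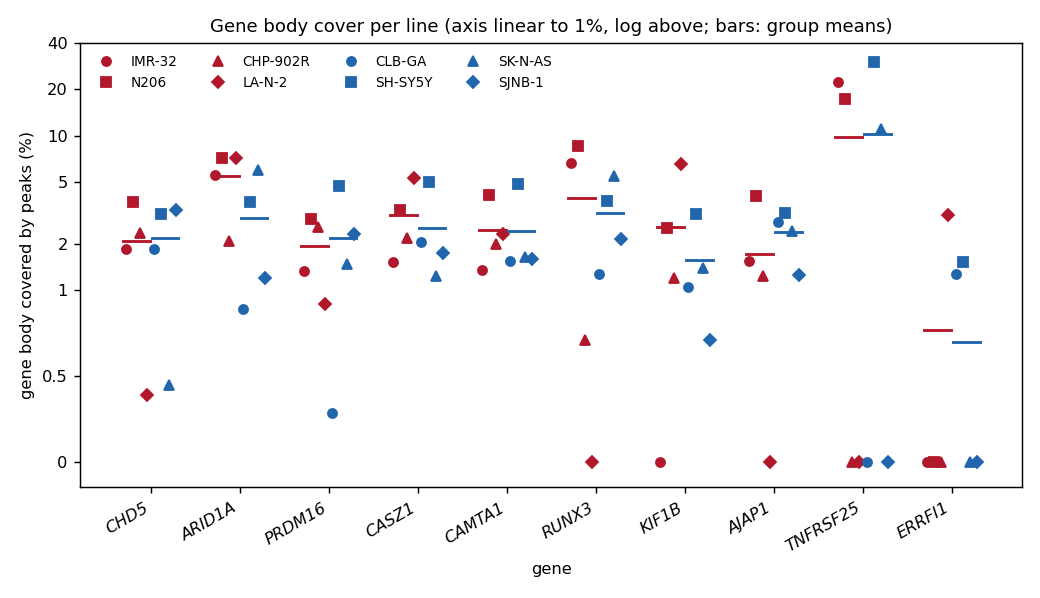
Percent of each gene body under peaks, by line; the y axis is linear from 0 to 1% and logarithmic above, red symbols are the 4 MNA lines, blue symbols the 4 *MYCN* single copy lines, and bars are group means. The red and blue symbols overlap in every gene, and the widest spread is that of *TNFRSF25*, from 0 to 29.8%.

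Over the 10 genes, none was called between the *MYCN* groups. Neither the Fisher's exact tests of promoter peaks nor the exact permutation tests of body cover gave an adjusted p under 0.05 for any of the 64486 genes (0% in both), and with 4 lines against 4 neither test can give less than 0.0286 before adjustment. At an unadjusted p under 0.05, 1 of the 10 genes (*CASZ1*) was reached by the promoter test, against 0.197% of all genes, and none by the body cover test, against 1.18%. No gene of the 10 had its MNA lines all above its single copy lines in body cover, or all below (0.983% and 0.195% of all genes). The difference in mean cover was positive (MNA higher) in 6 genes and negative in 4.

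The lines differed in how much was called at this end of the chromosome. Cover of the first 28 Mb of chromosome 1 was highest in SH-SY5Y (3.57%), N206 (3.21%) and LA-N-2 (2.97%) and lowest in SJNB-1 (1.21%). SH-SY5Y and N206 also had a promoter peak in more of the 10 genes (8 and 7) than the other lines did. Their pooled body cover of the 10 genes was the highest as well (4.45 and 3.96%), against 1.37 to 2.55% in the other 6 lines. In those 6 lines 4 to 6 genes had a promoter peak, and this count did not follow the cover: it was 5 in LA-N-2 and 6 in SJNB-1. Relative to the cover of the whole genome, that of the first 28 Mb was 1.95 times as high in SH-SY5Y and 1.76 times in N206, but 0.749 times in CHP-902R and 0.766 times in IMR-32. The number of copies of 1p36 in each line was not measured here, so fewer copies of the DNA and less methylation per copy cannot be told apart. Within 500 kb on either side of a gene, cover did not always follow the gene. In LA-N-2 it was 4.29% around *CHD5*, where the gene had 0.39%, whereas around *AJAP1* it was 0.151%, the lowest of the 8 lines, and the gene had none. In IMR-32 cover around *AJAP1* was nearly the same (0.155%), but the gene had 1.55%.

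Regions formed by merging overlapping peaks of the lines showed how far sites were shared. Of the 374 regions in the 10 genes and their promoter windows, 245 (65.5%) came from a single line, 91 (24.3%) in 2 to 3 lines, 31 (8.29%) in 4 to 5 lines, 7 (1.87%) in 6 or 7 lines, and none in all 8. The 7 were the region at exon 9 of *CAMTA1* and its introns named above, the 3 *PRDM16* introns and the last exon of *ARID1A*, and none of them was in a canonical window. In the first 28 Mb of chromosome 1, 65.1% of 4723 regions were in 1 line and 0.275% in all 8. Over the 631 body peaks, 88 (13.9%) touched a coding exon and 1.96% of the gene bodies is coding, against 30.9% and 4.39% for the other protein-coding genes of the first 28 Mb, and this comparison was not tested. The median number of peaks per 100 kb was 3.63 over the 10 genes and 3.97 over the 383 other protein-coding genes, and median body cover was 2.27 and 2.35%.

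Few neighbors had a promoter peak in exactly the same lines. Among the 383 protein-coding genes, the pattern of *CHD5* (all but SK-N-AS) was shared by *ACAP3*, that of *TNFRSF25* by *NIPAL3*, that of *AJAP1* by *MMEL1* and *TMCO4*, that of *RUNX3* by *RSRP1* and *ISG15*, and that of *CAMTA1* by *CROCC*, *USP48* and *RPS6KA1*. The pattern of *KIF1B* was shared by 4 genes, the nearest being *MRPL20*, *LYPLA2* and *TMEM50A*, and those of *CASZ1* and *ERRFI1* by none. Of 33 further genes of the region that were looked up (suppressor candidates and genes of signaling and metabolism), a promoter peak by any TSS was seen for 29, for 17 in at least 4 lines and for 5 in at least 6. These 5 were *KCNAB2* and *EPHB2* (8 lines each), *ECE1* (7), and *GNB1* and *CDC42* (6 each). In the canonical window, 20 of the 33 showed a peak at all and 3 in at least 4 lines, against 3 and 1 of the 10. None of the 33 was called between the *MYCN* groups, and the lowest unadjusted p was 0.143 in the Fisher's exact tests.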

How the data were processed

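The authors captured methylated DNA of the 8 lines with MBD2, sequenced it in pairs of reads, mapped the reads to GRCh37 with Bowtie 0.12.7, and ran MACS on each line by itself, per the labels and the study's methods. The options of the peak calling and an input control are not given in the sources used here. The deposited lists give each peak's position and score, and the score, the authors' own −10 log10 p-value from MACS, grows with depth, so scores of different lines are given as descriptions and ranks only within a list. No column was left unused for want of a sample.

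Peaks were set against GENCODE release 44 in GRCh37 coordinates with Python 3.11.15, numpy 2.4.6, pandas 2.3.3 and scipy 1.17.1. Promoter windows ran from 1500 bp upstream to 1000 bp downstream of a TSS, with an overlap of at least 1 bp. Presence was compared with two-sided Fisher's exact tests and body cover with two-sided exact permutation tests over 70 splits, both with Benjamini-Hochberg adjustment over 64486 genes; the tests were tested on simulated data. The labels do not say whether lines share a batch, and p-values measure the spread between lines. The 10 genes and the lists were chosen with earlier results of these data known. Named beside them are the listed 1p36 genes with a promoter peak in at least 6 lines, at most 3 genes with the same presence, and genes that share a peak. Of 34 listed genes, 1 symbol could not be matched to 1 gene. The CpG limit of 8 per 100 bp, the flanks and the stretches without peaks were chosen after seeing the data. Alternatives were a minimum score of 100, equal numbers of peaks, peak midpoints, canonical TSS, a window to 500 bp downstream, and each line left out. Sequences are those of the reference genome. The sequence of 1 shared interval is not reported here.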

Additional observations from a re-analysis of the deposited data

Results flagged for a closer look

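Body cover of the 10 genes was examined in both groups (20 groups of 4 lines) for a line far from the others, by the gap to the nearest line over the range of the group, by Dixon's test at 95%; chance gives about 1 such line in 20 groups, and 2 were found. For *CAMTA1*, SH-SY5Y had 4.83% against 1.55 to 1.63% in the other *MYCN* single copy lines (ratio 0.977). For *ERRFI1*, LA-N-2 had 3.06% against 0% in the other MNA lines (ratio 1.0), which rests on 1 peak. With the other lines at 0, any cover above 0 gives this ratio. The rate of chance given above is for normally distributed values and does not hold for groups with several values of 0.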

How the results depend on the processing

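No gene of the 10 was called between the *MYCN* groups under any alternative. Neither test can give less than 0.0286 before adjustment over 64486 genes, so a call was out of reach unless very many genes separated the groups. The lack of calls therefore does not show that the groups are alike. With a minimum score of 100, a promoter peak was left for 5 genes in 1 line or more and for 1 in 4 or more, and the median of peaks per 100 kb was 0.571. With the canonical TSS only, these counts of genes were 3 and 1. With equal numbers of peaks they were 10 and 5. The canonical window of *ERRFI1* then had a peak in 3 lines, and that of *RUNX3* in 1 (IMR-32). Leaving out each line in turn gave 9 to 10 genes in at least 1 line, 4 to 7 in at least 4 lines (4 without SH-SY5Y and 4 without SK-N-AS), and a median of 3.43 to 3.89 peaks per 100 kb. The difference in presence (MNA minus single copy, percent of lines) reversed in none of 130 alternatives, but it was 0 in 29 of them. A difference of 0 in the main setting cannot reverse, and that of *TNFRSF25*, 0 there, ran from −25 to 25. *CASZ1* had p = 0.0286 in Fisher's exact test, except with scores of at least 100 and with the canonical TSS, where p was 1. Leaving out 1 line could not change this p, because full separation of 4 lines against 3 gives the same value. The difference in body cover (MNA minus single copy, percentage points), with no p under 0.05 for any gene, kept its sign in 83 of 110 alternatives and was 0 in 2 (*CASZ1* and *TNFRSF25* with the minimum score of 100). It turned to 0.549 (*CHD5*) and 0.227 (*PRDM16*) with scores of at least 100, and to 0.418 (*CHD5*), −0.316 (*CAMTA1*), −0.525 (*CASZ1*) and −0.752 (*RUNX3*) with equal numbers of peaks. With 1 line left out it ran from −0.698 to 0.441 (*CHD5*), −0.518 to 0.861 (*CAMTA1*), −0.327 to 1.86 (*KIF1B*), −0.178 to 1.39 (*CASZ1*), −0.907 to 0.569 (*PRDM16*), −0.734 to 2.13 (*RUNX3*), −4.44 to 6.19 (*TNFRSF25*) and −0.697 to 0.338 (*ERRFI1*), and kept its sign for *ARID1A* and *AJAP1*. The cause of these turns was not tested. No paired analysis was possible because the lines carry no replicate numbers in the labels and are different cell lines. The lists give no depth, so a missing peak cannot be told apart from too few reads.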
